A study of Sus scrofa with 24 samples.

Results

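Intramuscular preadipocytes of the pig were compared between day 4 and day 8 of adipogenic culture, on the 6 libraries that the labels name IMF-4d and IMF-8d, 3 replicates each, out of 24 libraries in the series. The cells came from the longissimus dorsi (a long back muscle) of 6-day-old Yorkshire piglets. They had been brought close to confluence and then held for 2 days in induction medium with 3-isobutyl-1-methylxanthine (IBMX, an inhibitor of the phosphodiesterases that break down cAMP), dexamethasone (a synthetic glucocorticoid) and insulin. From day 2 to day 4 the medium held insulin as the only added inducer, and after day 4 it was growth medium. Both groups had therefore been through induction, the IMF-4d cells were collected at the end of the insulin phase, and the IMF-8d cells had spent the last interval without added insulin. Time in culture and the change of medium cannot be told apart. The cells of 3 piglets were used in the study, and the labels do not tie a replicate number to a piglet. The p-values therefore measure the spread between libraries of a group, which may be technical. This spread was estimated over all 24 libraries, subcutaneous ones included, so a gene that varies there can miss a call. Preadipocytes isolated from back subcutaneous fat (BF), collected on the same days, served as the comparison where a difference between depots was tested. The study describes a single set of 3 piglets for both depots, and the test of the difference did not pair the depots by animal.

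Adipogenesis in culture is a sequence. Cortisol-like hormones, cAMP and insulin switch on the early factors C/EBPβ and C/EBPδ, which hand over to PPARγ and C/EBPα, and these drive the genes of fatty acid uptake, triglyceride assembly and the lipid droplet. Alongside, a fibroblast-like cell usually takes down its contractile actin fibres and rebuilds its extracellular matrix. Intramuscular fat, the marbling of meat, arises from such stromal cells lying between the muscle fibres.

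All values are FPKM computed by the authors (fragments corrected for transcript length and for library size), and values of single libraries are given in the order of replicates 1, 2 and 3. Changes are log2 fold changes of FPKM + 1, day 8 minus day 4, given with their standard error (SE) and an adjusted p from limma. Calling a gene required an adjusted p under 0.01 and a change of 1 or more in either direction on the log2 scale. How many reads lie behind each value is not known. Total FPKM ran from 338790 to 379163 per library, with 10712 to 10791 genes at 1 FPKM or more. Replicates correlated at 0.9935 to 0.9944 within IMF-4d and at 0.9872 to 0.9938 within IMF-8d, across genes, which are not independent replicates.

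The labels were checked against markers. The defining adipocyte genes ADIPOQ, PLIN1 and RETN were listed at 0 in all 6 libraries, and the 11 adipocyte markers in the table summed to 8.28 to 9.84 FPKM on day 4 and 4.11 to 5.66 FPKM on day 8. ADIPOQ was too low to be tested, at a sum of no more than 1 FPKM over all 24 libraries. Its near absence is thus shared with BF and not particular to these cells. Most of that difference was CEBPA (means of 5.89 and 1.76 FPKM), the only one of the 6 tested markers to be called, while CIDEC (0.169 and 0.582 FPKM) and GPD1 (0.947 and 1.09 FPKM) were somewhat higher on day 8 without a call. PPARG, the master regulator of fat cells, measured 1.31, 0.732 and 0.517 FPKM on day 4 and 0.176, 0.192 and 0 on day 8 (log2 fold change -0.71, SE 0.29, adjusted p = 0.069). FABP4, the fatty acid binding protein of fat cells, stood at 0, 0 and 0.164 and 0.3004, 0.236 and 0.676 FPKM and did not pass the test either (adjusted p = 0.201). The labels call the cells of day 8 intramuscular adipocytes, and these marker transcripts were near or at 0, where an exact 0 can be a failed estimate. Of 14 skeletal myogenic markers 10 were at 0 in all 6 libraries, among them MYOD1, MYOG and PAX7. Their sum ran from 10.4 to 13.5 FPKM on day 4 and from 2.03 to 3.15 FPKM on day 8. Most of it was desmin (DES, 11.7 and 1.68 FPKM, log2 fold change -2.24), the one of the 2 tested that was called lower. Fibroblast and stromal markers summed to 12950 to 13180 FPKM on day 4 and to 7801 to 8796 on day 8. Collagens carried this sum. Of the 9 tested 1 was called higher, FAP (24.6 and 70.8 FPKM), and 1 lower, COL1A1, and PDGFRA averaged 144 and 226 FPKM without a call. In bulk RNA, fewer cells of a kind and less RNA per cell cannot be told apart.

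Of 16135 genes tested, 1169 were called (7.25%), 672 higher on day 8 (4.16%) and 497 lower (3.08%). The median log2 fold change over all tested genes was -0.07. With library scaling by median ratios 1172 genes were called, 818 higher and 354 lower, so that the share of higher genes was 69.8% in place of 57.5%. Of the called genes, 979 had a symbol and 98 were transcripts assembled by the authors outside the annotation. The libraries of the groups did not overlap in 52.9% of the tested genes.

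The 12 largest rises among genes that reached 5 FPKM were led by secreted signals and enzymes. STC1 (stanniocalcin, a secreted glycoprotein hormone) stood at 0.115, 0.1105 and 0.709 FPKM on day 4 and at 224, 288 and 193 on day 8. IL11, an interleukin of the IL-6 family, went from 4.42, 3.28 and 4.18 to 842, 735 and 906 FPKM. CHI3L1, a secreted chitinase-like glycoprotein, measured 1.46, 0.524 and 1.05 FPKM on day 4 against 268, 211 and 269 on day 8 (log2 fold change 6.98, SE 0.35, adjusted p = 2.12e-11). Libraries that do not overlap between the days were a condition for this choice, as for the falls. STEAP4, a metalloreductase of adipose tissue, rose from 0.0584, 0.0854 and 0.178 to 48.4, 45.3 and 35.7 FPKM (log2 fold change 5.31, SE 0.42, adjusted p = 1.46e-08). RGS2, which shortens signalling by G proteins, rose from 2.502, 0.968 and 2.13 to 113, 105 and 109 FPKM (log2 fold change 5.30, SE 0.62, adjusted p = 3.06e-06). CXCL8, PTGS2, MMP1, PCK1, IL1A, C3 and LIF completed the 12 and are described with their groups.

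**Figure D1:**
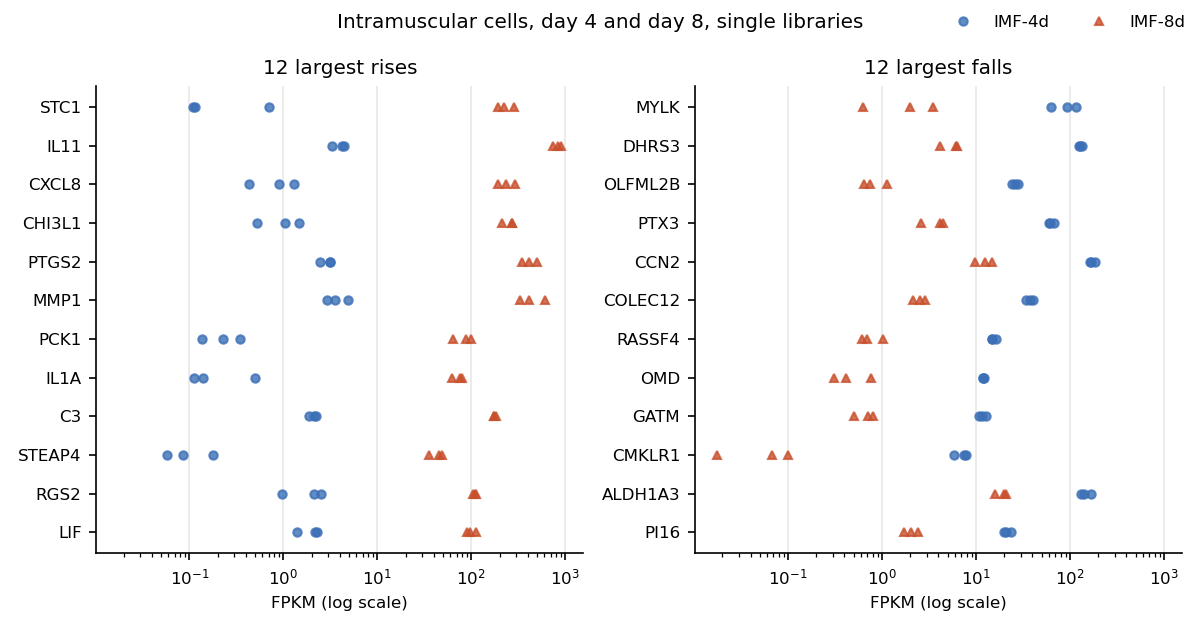
FPKM of each library on a log axis for the 12 largest rises (left) and the 12 largest falls (right) between IMF-4d (circles) and IMF-8d (triangles), all reaching a mean of 5 FPKM on one of the days. The genes were chosen to have libraries apart between the days; STC1 and IL11 lead the rises and MYLK and DHRS3 the falls.

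The 12 largest falls were led by MYLK and DHRS3. MYLK, the kinase that switches on smooth muscle type myosin, stood at 63.4, 92.8 and 117 FPKM on day 4 and at 1.98, 3.54 and 0.622 on day 8. OLFML2B, an olfactomedin-like matrix protein, fell from 26.03, 27.96 and 24.2 to 0.647, 0.742 and 1.13 FPKM (log2 fold change -3.88, SE 0.50, adjusted p = 8.14e-06). COLEC12, a scavenger receptor with a collagen-like stalk, fell from 40.9, 38.05 and 34.5 to 2.52, 2.86 and 2.13 FPKM (log2 fold change -3.47, SE 0.31, adjusted p = 5.78e-08). Within day 8 the MYLK values differed, with replicate 2 highest and replicate 3 lowest. CMKLR1, a receptor of the adipokine chemerin, measured 5.91, 7.39 and 7.802 FPKM on day 4 and 0.101, 0.0685 and 0.0176 FPKM on day 8 (log2 fold change -2.91, SE 0.19, adjusted p = 1.21e-09). GATM, the first enzyme of creatine synthesis, fell from 12.7, 10.8 and 11.5 to 0.803, 0.713 and 0.4996 FPKM (log2 fold change -2.93, SE 0.31, adjusted p = 7.03e-07). RASSF4, a Ras-association protein, fell from 14.98, 16.3 and 15.02 to 1.03, 0.608 and 0.6904 FPKM (log2 fold change -3.22, SE 0.49, adjusted p = 5.15e-05). DHRS3, PTX3, CCN2, OMD, ALDH1A3 and PI16 completed the 12 and are described with their groups. The calls of all 24 genes held in each of the 6 fits that left out 1 of the compared libraries.

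Genes were next read by groups written as lists. A gene can stand in more than 1 list. Beside each count, the share over all tested genes (4.16% higher, 3.08% lower) and the median over all of them (-0.07) give the scale. Called genes were mostly picked by the size of their change, and 52.9% of all tested genes had libraries apart. A remark that the libraries of such genes do not overlap is therefore a description and adds no evidence.

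**Figure D2:**
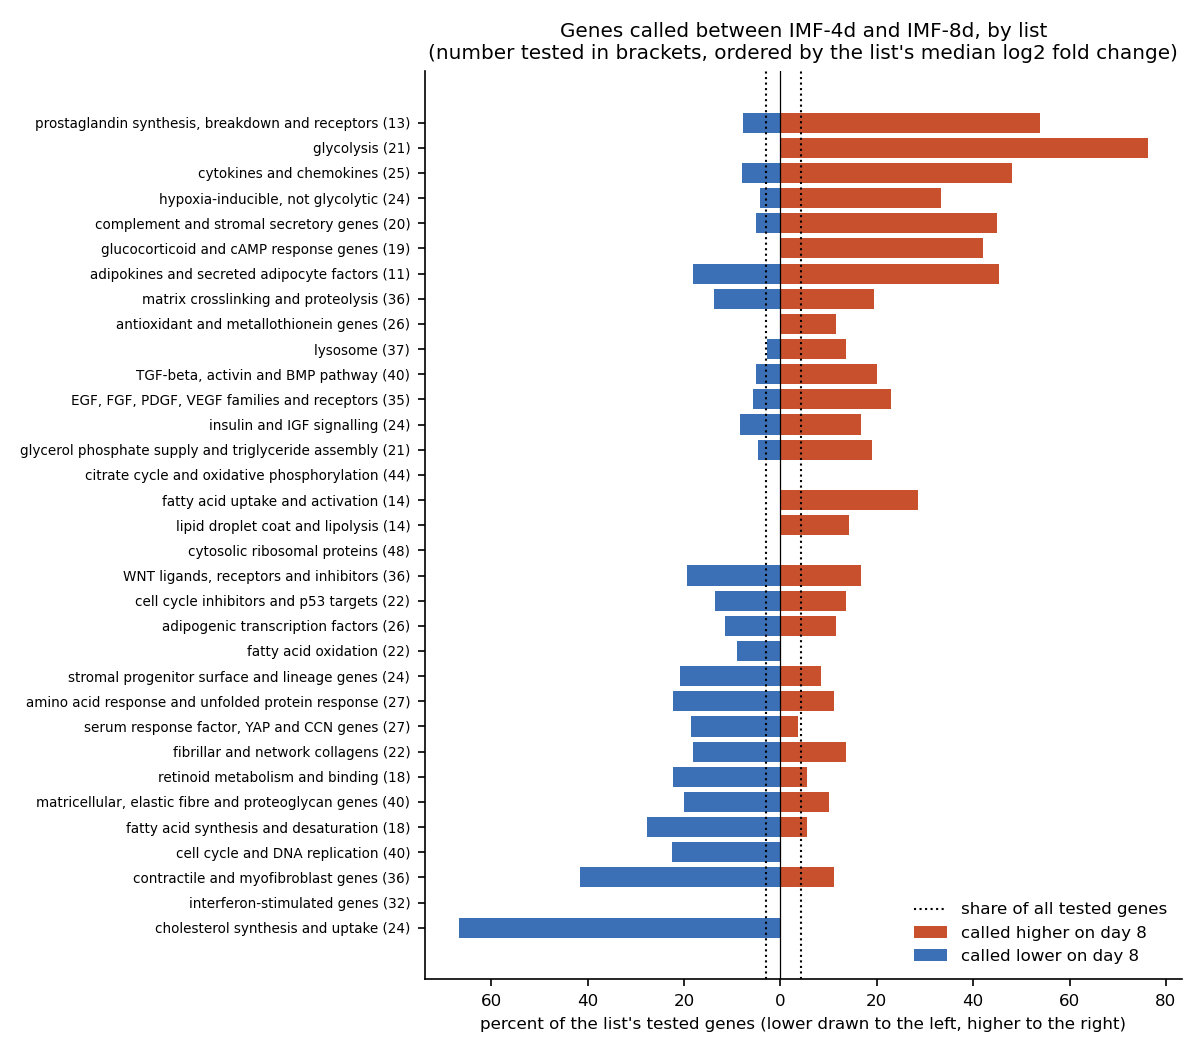
Percent of the tested genes of each list called higher (right) or lower (left) on day 8, with the number tested in brackets and lists ordered by their median log2 fold change. Dotted lines mark the share of all tested genes called in each direction, 4.16% higher and 3.08% lower; glycolysis has 16 of 21 called higher and cholesterol synthesis 16 of 24 called lower.

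Adipogenic transcription factors split evenly. Of 26 tested, 3 were called higher and 3 lower, with a median of -0.02. CEBPB, the early factor of the adipogenic cascade, rose from 13.97, 14.6 and 12.6 FPKM on day 4 to 45.4, 25.98 and 36.98 on day 8 (log2 fold change 1.302, SE 0.25, adjusted p = 3.93e-04). CEBPA, its late partner, fell from 6.36, 5.74 and 5.57 to 1.87, 1.28 and 2.11 FPKM (log2 fold change -1.33, SE 0.23, adjusted p = 1.93e-04). The pair thus moved in opposite directions, with no overlap between the days for either. GATA2, known as a brake on the step from preadipocyte to adipocyte, rose from 3.42, 3.47 and 3.198 to 12.1, 13.1 and 12.9 FPKM (log2 fold change 1.65, SE 0.36, adjusted p = 0.00137). EBF1, a factor that acts upstream of PPARG, fell from 16.7, 15.7 and 14.9 to 2.44, 3.699 and 2.46 FPKM (log2 fold change -2.13, SE 0.32, adjusted p = 4.41e-05). KLF2, a Krüppel-like factor, was the third called higher (log2 fold change 1.28) and DDIT3 the third called lower. CEBPD measured 49.2 ± 7.57 FPKM on day 4 and 33.6 ± 11.7 on day 8 (mean ± SD, n = 3) and did not pass the test, nor did NR1H3 (22.7 ± 3.26 and 28.6 ± 2.03 FPKM), the liver X receptor.

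Some of the fatty acid entry steps rose. Of 14 tested genes of fatty acid uptake and activation 4 were called higher and 0 lower (2 lower without IMF-4d replicate 2, 1 without IMF-8d replicate 3). LPL, which frees fatty acids from lipoproteins at the cell surface, measured 6.44, 4.69 and 5.36 FPKM on day 4 and 127, 141 and 93.7 on day 8 (log2 fold change 4.21, SE 0.58, adjusted p = 1.82e-05). ACSL1, an enzyme that couples fatty acids to coenzyme A, rose from 11.06, 12.1 and 11.6 to 83.1, 94.5 and 73.9 FPKM (log2 fold change 2.75, SE 0.34, adjusted p = 4.29e-06). ACSL4, its relative with a preference for arachidonic acid, rose from 29.8, 27.3 and 29.5 to 197, 259 and 157 FPKM (log2 fold change 2.75, SE 0.29, adjusted p = 5.89e-07). For these 3 genes the lowest day 8 library lay above the highest day 4 library. The other acyl-CoA synthetases ACSL3 (8.87 ± 0.404 and 4.51 ± 0.837 FPKM, mean ± SD, n = 3) and ACSL5 (19.3 ± 0.8396 and 19.99 ± 0.898 FPKM) were not called.

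Triglyceride assembly and the glycerol phosphate it needs followed in part. Of 21 tested genes 4 were called higher and 1 lower, PLPP3. The number lower was 0 with median ratio scaling and without IMF-4d replicates 1 or 2 or IMF-8d replicates 1 or 3. PCK1, the cytosolic enzyme that feeds glyceroneogenesis in fat cells, stood at 0.344, 0.136 and 0.229 FPKM on day 4 and at 64.5, 99.7 and 88.05 on day 8 (log2 fold change 6.09, SE 0.78, adjusted p = 7.77e-06). GPD2, the mitochondrial glycerol phosphate dehydrogenase, rose from 7.59, 6.53 and 7.91 to 25.4, 38.5 and 23.02 FPKM (log2 fold change 1.81, SE 0.27, adjusted p = 3.55e-05). PLPP1, a lipid phosphatase, rose from 39.2, 21.9 and 20.9 to 115, 124 and 139 FPKM (log2 fold change 2.22, SE 0.47, adjusted p = 0.0011). AGPAT2, which adds the second fatty acid to glycerol phosphate, rose from 4.33, 4.31 and 4.12 to 11.2, 8.47 and 12.6 FPKM (log2 fold change 1.15, SE 0.14, adjusted p = 3.06e-06). GK, the glycerol kinase, measured 4.14, 3.49 and 4.01 and 8.07, 9.18 and 7.15 FPKM and was not called (adjusted p = 0.0896). PCK2, the mitochondrial form of PCK1, stood at 23.01 ± 2.31 and 31.9 ± 4.77 FPKM (mean ± SD, n = 3) and was not called.

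Lipid droplet coats and lipases held few calls. Of 14 tested genes 2 were called higher and 0 lower (1 lower without IMF-8d replicate 3 and 1 with a pseudocount of 0.1), with a median of 0.08. HILPDA, a hypoxia-inducible inhibitor of triglyceride breakdown, rose from 11.3, 11.5 and 11.7 to 37.3, 31.3 and 35.9 FPKM (log2 fold change 1.51, SE 0.31, adjusted p = 7.25e-04). PLIN2, the coat protein of droplets in most cell types, measured 24.7, 22.7 and 23.4 FPKM on day 4 and 25.8, 24.03 and 23.2 on day 8 (adjusted p = 0.919). The days overlapped for PLIN2. ABHD5, the co-activator of PNPLA2, measured 7.67, 6.45 and 7.62 and 3.95, 3.39 and 3.52 FPKM and missed the fold threshold (log2 fold change -0.83, adjusted p = 0.00247). PNPLA2, the first lipase of triglyceride breakdown, measured 22.1 ± 2.02 and 29.03 ± 3.95 FPKM (mean ± SD, n = 3) and was not called.

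Some genes of fatty acid synthesis fell. Of 18 tested genes 1 was called higher and 5 lower, with a median of -0.54. The number called lower was 2 with median ratio scaling and 2 without IMF-4d replicate 2, and 3 without IMF-8d replicate 1. SCD, which puts the double bond into stearate, fell from 55.7, 53.5 and 60.1 FPKM to 19.7, 26.8 and 18.6 FPKM (log2 fold change -1.36, SE 0.22, adjusted p = 7.07e-05). ELOVL4, an elongase of very long chains, fell from 7.55, 8.17 and 8.24 to 1.14, 1.15 and 0.942 FPKM (log2 fold change -2.12, SE 0.17, adjusted p = 1.69e-08). Both fell with no overlap between days. ELOVL3, an elongase of brown fat and skin, was the one called higher, from 0.0343, 0 and 0 FPKM to 1.48, 1.36 and 1.51 FPKM (log2 fold change 1.27, SE 0.21, adjusted p = 1.25e-04). FASN, ACSS2 and FADS1 were the other three called lower, with log2 fold changes of -1.03, -1.01 and -1.01. Of the genes not called, ACLY measured 67.6 ± 0.715 and 40.9 ± 5.11 FPKM and ELOVL5 26.1 ± 1.27 and 13.8 ± 2.303 FPKM (mean ± SD, n = 3). Fatty acid oxidation had 0 of 22 tested genes called higher and 2 lower, ACAA2 and ACADL, with log2 fold changes of -1.03 and -1.03. Neither was called with median ratio scaling.

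Secreted factors of fat tissue were called in both directions, 5 of 11 tested higher and 2 lower. AGT, the precursor of angiotensin, rose from 0.918, 0.679 and 0.947 FPKM on day 4 to 35.4, 30.03 and 30.96 on day 8. CFD, the complement protease adipsin made by fat cells, rose from 1.72, 1.11 and 1.38 to 35.6, 21.1 and 33.5 FPKM (log2 fold change 3.66, SE 0.36, adjusted p = 2.27e-07). APLN, the peptide apelin, rose from 1.23, 0.898 and 1.35 to 8.86, 7.53 and 7.99 FPKM (log2 fold change 2.08, SE 0.23, adjusted p = 9.08e-07). APOE, an apolipoprotein, rose from 10.5, 8.64 and 8.402 to 22.4, 16.9 and 27.9 FPKM (log2 fold change 1.18, SE 0.22, adjusted p = 3.71e-04). Leptin (LEP) was listed at 0 in 5 of the 6 libraries. FST, which traps activins, was also called higher (1.16) and FSTL1 was among those called lower (-1.14), both as log2 fold changes, FSTL1 not with median ratio scaling.

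Most genes of the cholesterol pathway fell. Of 24 tested genes of its synthesis and uptake 16 were called lower and 0 higher, with a median of -1.29. The count lower lay between 13 and 16 under every alternative. SQLE, which makes the epoxide that is folded into the sterol rings, fell from 33.7, 35.8 and 37.1 FPKM on day 4 to 4.95, 6.19 and 4.23 on day 8 (log2 fold change -2.59, SE 0.20, adjusted p = 1.06e-08). IDI1, the isomerase of isoprenoid units, fell from 63.8, 58.9 and 64.6 to 12.2, 11.4 and 10.6 FPKM (log2 fold change -2.35, SE 0.16, adjusted p = 2.00e-09), and MVD, the decarboxylase that supplies it, from 27.7, 29.5 and 21.98 to 5.51, 4.15 and 7.68 FPKM (log2 fold change -2.04, SE 0.20, adjusted p = 2.79e-07). In each of these the highest day 8 library lay far under the lowest day 4 library. INSIG1, which holds the sterol sensor in the endoplasmic reticulum, was among the other genes called lower, with a log2 fold change of -1.88. SREBF2, the transcription factor that drives the pathway when sterols are low, measured 47.03, 46.4 and 40.7 FPKM on day 4 and 22.4, 19.3 and 24.8 FPKM on day 8 and missed the fold threshold (log2 fold change -0.98). HSD17B7, the sterol reductase, stood out with 17.9 ± 1.76 and 34.6 ± 0.819 FPKM (mean ± SD, n = 3, log2 fold change 0.92, not called).

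SREBF2 acts through a sterol regulatory element, and the letters TCACNCCAC were searched on both strands in the 250 bases before the RefSeq gene start (Sscrofa11.1). Of 22 promoters of the list 4 held them (18.2%), HMGCS1 and SREBF2 among them, against 0.804% of all 19527 promoters. The promoter of HMGCS1 (chr16:27957262-27957511, minus strand), the synthase at the entry of the pathway, is shown because the gene was called lower (log2 fold change -1.93) and carries the letters, in capitals, 181 bases before the start.
HMGCS1: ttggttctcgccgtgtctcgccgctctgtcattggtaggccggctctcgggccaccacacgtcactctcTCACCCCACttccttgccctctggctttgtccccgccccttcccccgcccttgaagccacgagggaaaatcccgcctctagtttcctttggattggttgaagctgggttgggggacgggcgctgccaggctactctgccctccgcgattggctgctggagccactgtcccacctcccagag
A match describes the sequence and not a bound site.

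**Figure D3:**
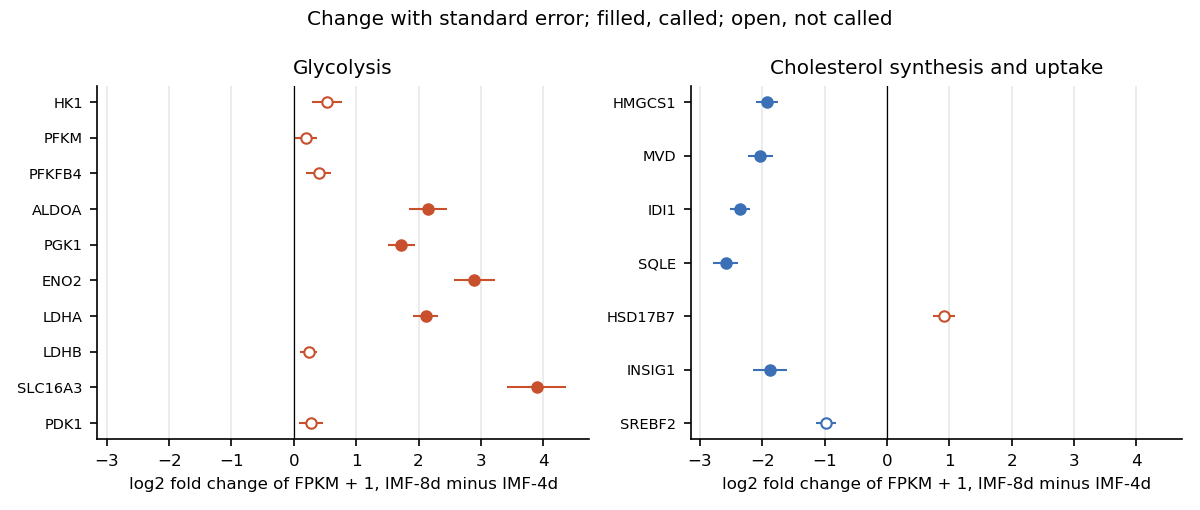
Log2 fold change of FPKM + 1, IMF-8d minus IMF-4d, with its standard error for the genes of glycolysis (left) and of cholesterol synthesis and uptake (right) that the text names, in pathway order. Filled points were called and open points were not; 5 of the 10 glycolytic genes drawn are filled and lie to the right of 0, and 5 of the 7 cholesterol genes are filled and lie to the left.

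Most genes of glycolysis rose. Of 21 tested genes 16 were called higher and 0 lower, with a median of 1.40. SLC16A3, the transporter that exports lactate, measured 5.32, 4.25 and 4.28 FPKM on day 4 and 85.6, 66.1 and 98.6 on day 8 (log2 fold change 3.90, SE 0.48, adjusted p = 4.00e-06). LDHA, which turns pyruvate to lactate, rose from 274, 243 and 262 to 1084, 1145 and 1152 FPKM (log2 fold change 2.11, SE 0.20, adjusted p = 1.22e-07). ALDOA, the aldolase of muscle and most cells, rose from 101, 109 and 110.1 to 469, 439.6 and 535 FPKM (log2 fold change 2.16, SE 0.30, adjusted p = 1.82e-05). PGK1, the first step that yields ATP, rose from 70.7, 66.97 and 65.2 to 223, 230.2 and 224 FPKM (log2 fold change 1.72, SE 0.22, adjusted p = 4.71e-06). All 4 had 3 day 8 libraries above the 3 of day 4. ENO2, the neuronal type of enolase, rose as well (log2 fold change 2.89). The genes not called were HK1, PFKM, PFKFB4, LDHB and PDK1, of which HK1 measured 43.8 ± 1.68 and 65.2 ± 18.9 FPKM and LDHB 18.2 ± 1.397 and 21.7 ± 1.68 FPKM (mean ± SD, n = 3).

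Other genes known to answer to low oxygen had 8 of 24 called higher and 1 lower, with a median of 0.83. NDUFA4L2, a mitochondrial protein induced by hypoxia-inducible factor, rose from 6.47, 5.99 and 5.65 FPKM to 175, 153 and 194 FPKM (log2 fold change 4.63, SE 0.33, adjusted p = 3.38e-09). VEGFA, the growth factor of vessels, rose from 29.1, 30.3 and 27.1 to 185, 168 and 173 FPKM (log2 fold change 2.57, SE 0.35, adjusted p = 1.42e-05). MXI1, an antagonist of MYC, rose from 2.72, 2.96 and 2.78 to 19.3, 22.98 and 17.8 FPKM (log2 fold change 2.45, SE 0.30, adjusted p = 4.28e-06). NDRG1 and EGLN3, the second of which is an oxygen-sensing hydroxylase, were called higher with log2 fold changes of 2.18 and 2.15. HIF1A, the factor whose protein is stabilised at low oxygen, measured 77.4, 87.5 and 84.1 FPKM on day 4 and 103, 135 and 89.4 FPKM on day 8 and was not called (adjusted p = 0.194). COX4I2, the cytochrome oxidase subunit used at low oxygen, stood at 7.57, 3.95 and 5.03 and 11.7, 7.74 and 15.1 FPKM and was not called either (adjusted p = 0.0108). CA12, a carbonic anhydrase, was the single gene called lower (log2 fold change -1.44) and lost the call in each fit without 1 compared library.

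Hypoxia-inducible factor binds sites with the core ACGTG. On both strands of the same 250 bases this core stood in 10 of 22 glycolytic promoters (45.5%), in 10 of 25 of the other hypoxia list (40.0%) and in 18.7% of all promoters. The promoter of PGK1 (chrX:62187222-62187471, plus strand) is shown as one that carries the core on each strand, in capitals.
PGK1: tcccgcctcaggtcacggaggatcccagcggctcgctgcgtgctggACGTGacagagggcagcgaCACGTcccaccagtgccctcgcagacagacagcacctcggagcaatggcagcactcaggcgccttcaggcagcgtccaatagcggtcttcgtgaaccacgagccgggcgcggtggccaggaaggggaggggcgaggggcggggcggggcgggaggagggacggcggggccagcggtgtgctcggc
The core also stood in 36.4% of the 22 promoters of the cholesterol list, in 32.6% of the 43 of the contractile list and in 31.8% of the 22 of the glucocorticoid and cAMP list, so that all 5 lists searched lay above the share of all promoters.

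The citrate cycle and the respiratory chain, the mitochondrial continuation of glycolysis, had 0 of 44 tested genes called, with a median of 0.09. At an unadjusted p under 0.05 there were 12, against 44.5% of all tested genes. In the fit of the 12 IMF libraries, in that of only the compared libraries and with median ratio scaling 1 gene each was called higher. ATP5PB measured 82.1 ± 6.37 and 81.2 ± 3.87 FPKM, MDH2 75.3 ± 7.03 and 80.3 ± 9.06 FPKM and UQCRC1 69.5 ± 5.68 and 71.6 ± 10.6 FPKM (mean ± SD, n = 3). Cytosolic ribosomal proteins had 0 of 48 called and a median of 0.04, with 1 at an unadjusted p under 0.05. COX4I1 varied between libraries of a group, at 35.2, 48.8 and 39.9 FPKM on day 4 and 238, 193 and 123 FPKM on day 8 (log2 fold change 2.10, adjusted p = 0.0214), with no overlap between the days.

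Cytokines and chemokines were called higher in 12 of 25 tested genes and lower in 2 (1 in most alternatives), with a median of 1.19. IL1A, an alarm cytokine, measured 0.138, 0.111 and 0.503 FPKM on day 4 and 79.6, 75.9 and 62.5 on day 8 (log2 fold change 5.89, SE 0.67, adjusted p = 2.07e-06). CXCL8, the neutrophil attractant interleukin 8, rose from 0.893, 0.434 and 1.29 to 236, 289 and 192 FPKM (log2 fold change 7.01, SE 0.77, adjusted p = 1.43e-06). LIF, which like IL11 signals through gp130, rose from 2.26, 1.38 and 2.16 to 90.8, 113 and 97.9 FPKM (log2 fold change 5.12, SE 0.62, adjusted p = 4.20e-06). IL6 itself rose too (log2 fold change 4.89). CXCL14, a chemokine of epithelium and stroma, rose from 5.96, 4.44 and 5.19 to 187, 155 and 216 FPKM (log2 fold change 4.91, SE 0.60, adjusted p = 4.41e-06). TNFAIP3 and NFKBIA, inhibitors that NF-κB switches on against itself, were called higher with log2 fold changes of 2.23 and 2.30. Abundant members that were not called were CCL2 (286 ± 5.84 and 663 ± 124 FPKM, mean ± SD, n = 3), CSF1 (37.4 ± 0.953 and 22.7 ± 1.32 FPKM), IL33 (44.1 ± 5.67 and 37.4 ± 3.996 FPKM) and CXCL12 (26.9 ± 3.04 and 12.2 ± 1.303 FPKM). The spread used for CCL2 and CXCL12 includes BF-8d, where they measured 1733 ± 1299 and 15.3 ± 16.8 FPKM (mean ± SD, n = 3). The 10 leukocyte markers summed to 5.02 to 7.84 FPKM on day 4 and to 14.9 to 19.2 FPKM on day 8, with PTPRC, CD3E and MS4A1 at 0 in all 6 libraries. Of these markers 1 was called, TYROBP, which measured 2.06, 1.05 and 0.508 and 9.13, 5.47 and 4.74 FPKM. The part of such cells in the cytokine values was not tested.

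Enzymes on the route from membrane lipid to prostaglandin E2 rose. Of 13 tested genes of prostaglandin synthesis, breakdown and reception 7 were called higher and 1 lower, with a median of 1.49. PLA2G4A, the phospholipase that frees arachidonic acid, rose from 7.32, 6.73 and 7.84 FPKM to 130.1, 148 and 102 FPKM (log2 fold change 3.93, SE 0.37, adjusted p = 1.23e-07). PTGS2, the inducible cyclooxygenase, rose from 3.17, 2.46 and 3.16 to 412, 503 and 343 FPKM (log2 fold change 6.73, SE 0.65, adjusted p = 2.70e-07). PTGES, the synthase of prostaglandin E2, rose from 55.2, 53.5 and 51.6 to 304, 271 and 327 FPKM (log2 fold change 2.47, SE 0.35, adjusted p = 1.72e-05). The 3 enzymes act one after the other, and none of their libraries overlapped between days. AKR1B1, a reductase that can make prostaglandin F2α, rose from 34.01, 38.7 and 32.3 to 247, 200.3 and 239.9 FPKM (log2 fold change 2.67, SE 0.31, adjusted p = 2.25e-06). PTGIR, the prostacyclin receptor, rose from 0.155, 0.339 and 0.109 to 9.11, 8.21 and 7.83 FPKM (log2 fold change 2.97, SE 0.18, adjusted p = 2.73e-10), while PTGIS, the prostacyclin synthase, was the gene called lower (log2 fold change -1.15) and was not called with median ratio scaling. PTGES3 (51.4 ± 2.999 and 39.2 ± 5.11 FPKM, mean ± SD, n = 3) was not called.

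Of 19 tested glucocorticoid and cAMP response genes 8 were called higher and 0 lower (1 lower without IMF-8d replicate 2), with a median of 0.69. The orphan receptors NR4A1, NR4A2 and NR4A3 are immediate targets of cAMP. NR4A2 measured 4.61, 3.98 and 4.45 FPKM on day 4 and 113, 139 and 119.7 on day 8 (log2 fold change 4.54, SE 0.45, adjusted p = 3.14e-07). NR4A1 rose from 6.05, 4.76 and 5.43 to 49.6, 52.3 and 63.4 FPKM (log2 fold change 3.13, SE 0.47, adjusted p = 4.22e-05) and NR4A3 from 0.741, 0.464 and 0.671 to 12.8, 20.7 and 16.1 FPKM (log2 fold change 3.41, SE 0.58, adjusted p = 1.75e-04). SIK1, a kinase that dampens the same pathway, rose from 0.655, 0.725 and 0.919 to 49.02, 54.9 and 52.4 FPKM (log2 fold change 4.91, SE 0.54, adjusted p = 1.39e-06). The phosphodiesterase gene PDE4D, which cAMP induces, was called higher as well (log2 fold change 2.44). HSD11B1, the enzyme that regenerates active glucocorticoid inside the cell, rose from 3.54, 3.11 and 2.88 to 22.2, 21.7 and 24.5 FPKM (log2 fold change 2.51, SE 0.32, adjusted p = 7.01e-06). The glucocorticoid targets FKBP5 (18.3 ± 2.73 and 11.4 ± 3.03 FPKM, mean ± SD, n = 3) and SGK1 (24.8 ± 1.68 and 25.3 ± 4.199 FPKM) were not called.

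Growth factors of the EGF, FGF, PDGF and VEGF families were called higher in 8 of 35 tested genes and lower in 2, while the receptors EGFR (22.9 ± 0.295 and 26.8 ± 3.498 FPKM, mean ± SD, n = 3), FGFR1 (34.9 ± 2.701 and 44.1 ± 2.69 FPKM), PDGFRA (144 ± 3.52 and 226 ± 42.1 FPKM) and PDGFRB (98.1 ± 5.44 and 97.7 ± 6.57 FPKM) were not called. AREG and EREG, both ligands of EGFR, rose from 2.03, 2.37 and 2.08 to 80.6, 70.9 and 97.6 FPKM (log2 fold change 4.72, SE 0.48, adjusted p = 4.39e-07) and from 0.207, 0.181 and 0.211 to 17.7, 30.2 and 17.98 FPKM (log2 fold change 4.22, SE 0.48, adjusted p = 1.60e-06). FGF10, a fibroblast growth factor of stroma that supports preadipocytes, rose from 0.514, 0.623 and 0.5896 to 19.6, 22.3 and 14.8 FPKM (log2 fold change 3.64, SE 0.36, adjusted p = 2.48e-07). All 10 called genes of the list code for ligands. HGF, the ligand of MET, and ANGPT1, the ligand of the endothelial receptor TEK, rose with log2 fold changes of 2.18 and 2.00.

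**Figure D4:**
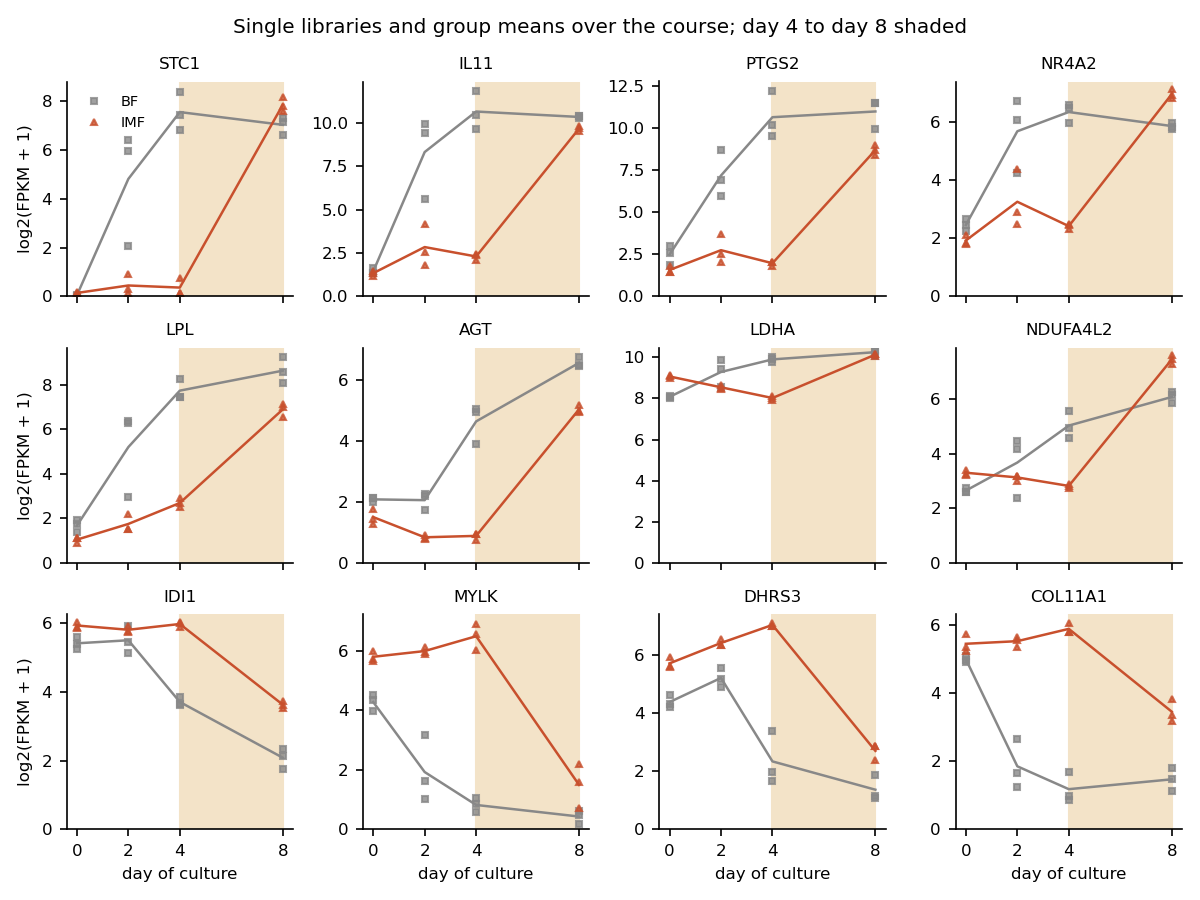
log2(FPKM + 1) of 12 genes in single libraries (points) and group means (lines) on days 0, 2, 4 and 8, for IMF (triangles) and BF (squares), with the interval from day 4 to day 8 shaded. STC1, IL11, PTGS2 and NR4A2 are higher in IMF on day 8 than on day 4, whereas MYLK, DHRS3 and COL11A1 are lower on day 8 than on day 4.

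Many genes of the contractile apparatus fell. Of 36 tested contractile and myofibroblast genes 15 were called lower and 4 higher, with a median of -0.85. ACTA2, the smooth muscle actin that marks myofibroblasts, measured 1104, 1129 and 1143 FPKM on day 4 and 184, 189.9 and 199.6 on day 8 (log2 fold change -2.55, SE 0.55, adjusted p = 0.00125). TPM1, a tropomyosin, fell from 357, 347 and 355 to 54.1, 60.5 and 57.6 FPKM (log2 fold change -2.60, SE 0.34, adjusted p = 7.80e-06). CNN1, the calponin of smooth muscle, fell from 22.2, 24.9 and 22.3 to 2.38, 2.73 and 3.31 FPKM (log2 fold change -2.67, SE 0.33, adjusted p = 3.96e-06). SYNPO2, a Z-disc and actin bundling protein, fell from 20.9, 20.1 and 21.9 to 2.09, 2.61 and 1.99 FPKM (log2 fold change -2.77, SE 0.25, adjusted p = 6.03e-08). The day 8 libraries of these genes lay close together and apart from those of day 4. The members called higher were CSRP2, SMTN, TES and ITGA1, with log2 fold changes of 1.75, 1.47, 1.13 and 1.13. The intermediate filament VIM (4392 ± 219.9 and 3949 ± 414 FPKM, mean ± SD, n = 3), the integrin ITGB1 (291 ± 34.1 and 346 ± 66.2 FPKM) and the tropomyosin TPM4 (724 ± 12.8 and 494 ± 26.6 FPKM) were not called. TAGLN measured 863, 882 and 811 FPKM on day 4 and 282, 245 and 377 on day 8 and was not called either (adjusted p = 0.0158). The 10 pericyte and smooth muscle markers, which hold ACTA2, summed to 1177 to 1218 FPKM on day 4 and to 277 to 301 FPKM on day 8, and 3 of them were called lower. RGS5, a pericyte marker, was called higher in the same libraries, at 4.3997, 4.59 and 5.28 FPKM on day 4 and 68.4, 83.8 and 56.7 FPKM on day 8. The skeletal myogenic markers moved the same way through DES, as given above. Whether the share of such cells changed was not tested.

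Serum response factor binds the CArG box of contractile genes. This motif, searched on both strands of the 250 bases, stood in 5 of 43 promoters of the list (11.6%, CNN2, MYL9, TAGLN, TPM4 and VCL) and in 1.31% of all promoters. The promoters of MYL9 (chr17:39787915-39788164, plus strand), the regulatory light chain of myosin, and VCL (chr14:76699893-76700142, plus strand), the adhesion protein vinculin, are shown because both genes were called lower (log2 fold changes -2.02 and -1.24) and hold the box, in capitals, 70 and 206 bases before the start.
MYL9: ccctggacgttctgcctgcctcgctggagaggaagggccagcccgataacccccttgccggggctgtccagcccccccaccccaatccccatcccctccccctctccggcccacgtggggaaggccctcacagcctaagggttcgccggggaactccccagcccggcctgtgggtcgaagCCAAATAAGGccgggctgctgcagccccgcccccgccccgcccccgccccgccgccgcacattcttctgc
VCL: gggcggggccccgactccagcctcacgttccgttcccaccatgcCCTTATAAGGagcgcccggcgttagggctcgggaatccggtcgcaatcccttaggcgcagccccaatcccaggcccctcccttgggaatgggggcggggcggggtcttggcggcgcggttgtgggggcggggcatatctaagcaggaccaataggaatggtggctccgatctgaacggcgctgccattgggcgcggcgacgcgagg
CNN2, TAGLN and TPM4 also hold it and were not called.

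The list of serum response factor, the YAP and TEAD factors, their cofactors and their targets had 5 of 27 tested genes called lower and 1 higher. CCN2, the connective tissue growth factor, fell from 162, 167 and 186 FPKM to 12.5, 9.85 and 14.9 FPKM (log2 fold change -3.70, SE 0.51, adjusted p = 1.59e-05). CCN1, its relative, fell from 117, 119.9 and 115 to 34.3, 24.7 and 38.4 FPKM (log2 fold change -1.84, SE 0.24, adjusted p = 9.20e-06). AMOTL2, a YAP target that feeds back on YAP, fell from 71.7, 75.7 and 73.2 to 15.9, 16.9 and 18.5 FPKM (log2 fold change -2.05, SE 0.29, adjusted p = 1.72e-05). The early response genes EGR1 and FOS fell with log2 fold changes of -1.65 and -1.21. YAP1 (14.7 ± 0.638 and 23.2 ± 6.94 FPKM, mean ± SD, n = 3) and TEAD1 (23.5 ± 2.08 and 15.3 ± 4.203 FPKM) were not called, nor was the receptor kinase AXL (53.6 ± 0.642 and 33.97 ± 2.62 FPKM).

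Collagens were called in both directions, 3 of 22 tested higher and 4 lower. COL11A1, a collagen that seeds fibrils, fell from 54.7, 54.6 and 65.5 FPKM to 7.96, 13.3 and 9.23 FPKM (log2 fold change -2.43, SE 0.28, adjusted p = 1.42e-06). COL14A1, which ties fibrils together, fell from 263, 258 and 288 to 62.3, 99.8 and 66.5 FPKM (log2 fold change -1.84, SE 0.38, adjusted p = 9.71e-04). COL8A2, a short chain network collagen, fell from 7.71, 9.71 and 8.94 to 0.323, 0.572 and 0.446 FPKM, while its partner chain COL8A1 rose from 21.4, 23.1 and 22.9 to 66.9, 76.8 and 60.05 FPKM (log2 fold change 1.55, SE 0.27, adjusted p = 1.84e-04). The basement membrane gene COL4A1 rose from 182, 177 and 174 to 407, 445 and 454 FPKM (log2 fold change 1.29, SE 0.28, adjusted p = 0.00156), and COL15A1 was the third called higher (log2 fold change 1.21). Among the abundant fibrillar collagens COL1A1 was called lower (log2 fold change -1.09) and is described with the calls close to the threshold. COL1A2 (3982 ± 25.9 and 2909 ± 276 FPKM, mean ± SD, n = 3) and COL3A1 (2368 ± 92.2 and 1606 ± 128 FPKM) were not called.

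Among matricellular genes and proteoglycans 4 of 40 tested were called higher and 8 lower. The small leucine-rich proteoglycans, which coat collagen fibrils, split. OMD fell from 11.9, 12.1 and 11.9 to 0.309, 0.766 and 0.412 FPKM (log2 fold change -3.13, SE 0.33, adjusted p = 7.23e-07), ASPN from 556, 527 and 579.7 to 80.1, 92.1 and 75.3 FPKM (log2 fold change -2.74, SE 0.47, adjusted p = 1.50e-04) and OGN from 102, 95.96 and 102 to 16.7, 14.1 and 15.7 FPKM (log2 fold change -2.62, SE 0.33, adjusted p = 4.61e-06). PRELP of the same family rose from 71.6, 72.2 and 63.9 to 399.9, 437 and 444 FPKM (log2 fold change 2.61, SE 0.36, adjusted p = 1.65e-05). DCN (1373 ± 46.96 and 929.8 ± 26.3 FPKM, mean ± SD, n = 3), FMOD (707 ± 6.07 and 866 ± 47.7 FPKM) and BGN (1004 ± 42.2 and 1127 ± 113 FPKM) were not called. THBS1, which releases latent TGF-beta, fell from 749.9, 785 and 876 to 152, 237 and 187 FPKM (log2 fold change -2.08, SE 0.34, adjusted p = 1.01e-04).

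Genes that process, crosslink or cut the matrix, with inhibitors of the cutting enzymes, had 7 of 36 tested genes called higher and 5 lower. MMP1, the interstitial collagenase, rose from 3.51, 2.93 and 4.85 FPKM to 604, 408 and 333 FPKM (log2 fold change 6.53, SE 0.86, adjusted p = 1.03e-05). ADAMTS4, an aggrecanase, rose from 1.73, 1.53 and 1.77 to 44.7, 37.5 and 37.7 FPKM (log2 fold change 3.93, SE 0.36, adjusted p = 1.07e-07). PLAUR, the receptor of urokinase, rose from 19.7, 21.4 and 18.5 to 181, 144 and 153 FPKM (log2 fold change 2.94, SE 0.38, adjusted p = 7.51e-06). The inhibitors moved apart. TIMP1 rose from 118, 118 and 94.5 to 474, 366 and 408 FPKM (log2 fold change 1.91, SE 0.31, adjusted p = 9.18e-05), and TIMP3, which stays bound to the matrix, fell from 409, 420.4 and 447 to 53.1, 90.3 and 63.2 FPKM (log2 fold change -2.64, SE 0.32, adjusted p = 2.83e-06). Abundant members that were not called included MMP14 (421 ± 19.6 and 627 ± 5.35 FPKM, mean ± SD, n = 3), SERPINH1 (463 ± 27.4 and 337 ± 53.4 FPKM) and LOXL2 (299 ± 9.91 and 556 ± 40.9 FPKM).

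The TGF-beta, activin and BMP pathway had 8 of 40 tested genes called higher and 2 lower. GREM1, a secreted trap of BMPs, rose from 10.7, 8.61 and 8.69 FPKM to 181, 193 and 182 FPKM (log2 fold change 4.18, SE 0.26, adjusted p = 4.03e-10). BMP2, one of the ligands it binds, rose from 0.211, 0.08301 and 0.116 to 3.02, 3.599 and 4.33 FPKM (log2 fold change 2.02, SE 0.37, adjusted p = 2.80e-04). Trap and ligand thus rose in the same libraries. GDF15, a stress-induced member of the family, rose from 7.103, 8.68 and 7.44 to 68.8, 53.6 and 69.03 FPKM (log2 fold change 2.89, SE 0.47, adjusted p = 9.91e-05). ID4, an inhibitor of helix-loop-helix factors and BMP target, fell from 10.3, 11.4 and 11.7 to 2.08, 1.35 and 1.99 FPKM (log2 fold change -2.12, SE 0.22, adjusted p = 4.80e-07), while ID1 (77.6 ± 11.4 and 129 ± 26.3 FPKM, mean ± SD, n = 3) and ID3 (618 ± 58.2 and 941 ± 92.3 FPKM) were not called. TGFBR2 (43.5 ± 1.27 and 34.6 ± 3.53 FPKM) was not called.

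WNT genes were called higher in 6 of 36 tested and lower in 7. The ligand WNT5A, which signals without β-catenin in many settings, rose from 0.639, 0.932 and 0.917 FPKM to 18.4, 19.4 and 14.9 FPKM (log2 fold change 3.34, SE 0.48, adjusted p = 2.36e-05). WNT11, of the same kind, rose from 0.196, 0.291 and 0.121 to 6.16, 6.36 and 7.32 FPKM (log2 fold change 2.66, SE 0.40, adjusted p = 4.48e-05). The secreted inhibitors of the SFRP family split. SFRP1 rose from 53.3, 51.9 and 53.5 to 381, 386 and 349 FPKM (log2 fold change 2.79, SE 0.43, adjusted p = 5.01e-05), SFRP5 fell from 7.63, 8.27 and 6.27 to 0.557, 0.4399 and 1.01 FPKM (log2 fold change -2.34, SE 0.19, adjusted p = 1.88e-08), and SFRP2 and SFRP4 fell with log2 fold changes of -2.03 and -1.58. The receptor FZD8 fell from 12.7, 14.6 and 11.13 to 1.23, 1.04 and 1.56 FPKM (log2 fold change -2.60, SE 0.13, adjusted p = 2.35e-11). FZD1 (113 ± 10.1 and 66.2 ± 5.503 FPKM, mean ± SD, n = 3) was not called.

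Retinoid metabolism, which sets the level of retinoic acid in the cell, had 1 of 18 tested genes called higher and 4 lower. DHRS3, which turns retinaldehyde back to retinol, fell from 136, 128 and 125 FPKM to 4.17, 6.21 and 6.24 FPKM. ALDH1A3 and ALDH1A1, which oxidise retinaldehyde to retinoic acid, fell from 141, 133 and 169 to 15.8, 19.9 and 20.8 FPKM (log2 fold change -2.91, SE 0.40, adjusted p = 1.50e-05) and from 227, 174 and 186 to 76.2, 82.5 and 63.5 FPKM (log2 fold change -1.39, SE 0.29, adjusted p = 8.79e-04). CRABP1, a carrier of retinoic acid, fell from 4.77, 5.06 and 4.08 to 0, 0.197 and 0.322 FPKM (log2 fold change -2.27, SE 0.18, adjusted p = 1.88e-08). CYP26B1, which breaks retinoic acid down, was the gene called higher, from 1.11, 1.59 and 1.44 to 9.64, 10.1 and 8.81 FPKM (log2 fold change 2.15, SE 0.23, adjusted p = 7.57e-07). The receptors RARA (17.01 ± 0.947 and 17.7 ± 1.96 FPKM, mean ± SD, n = 3) and RARG (26.99 ± 1.42 and 25.6 ± 2.62 FPKM) were not called.

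Insulin and IGF signalling had 4 of 24 tested genes called higher and 2 lower, and 4 of these 6 were binding proteins of IGF. IGFBP2 measured 764, 692 and 662 FPKM on day 4 and 7635, 5582 and 8135 on day 8 (log2 fold change 3.32, SE 0.43, adjusted p = 6.52e-06). IGFBP5 rose from 122, 126 and 126 to 1256, 1785 and 1514 FPKM (log2 fold change 3.58, SE 0.50, adjusted p = 1.94e-05) and IGFBP4 from 138, 128 and 119 to 562, 493 and 639 FPKM (log2 fold change 2.12, SE 0.39, adjusted p = 2.79e-04). On day 8 the FPKM of IGFBP2, a level per transcript length, lay above that of the collagen COL1A2. IGFBP6, which prefers IGF2, fell from 70.7, 74.3 and 69.3 to 24.002, 17.9 and 25.04 FPKM (log2 fold change -1.65, SE 0.18, adjusted p = 7.56e-07), and IGFBP7 (68.2 ± 4.38 and 73.3 ± 16.1 FPKM, mean ± SD, n = 3) was not called. IRS1, the docking protein of the insulin receptor, was called lower (log2 fold change -1.26). PPP1R3B, a glycogen-targeting subunit, rose from 2.48, 2.48 and 3.104 to 8.57, 10.01 and 8.61 FPKM (log2 fold change 1.45, SE 0.20, adjusted p = 1.87e-05). IGF1 measured 93.8, 90.8 and 88.3 and 118, 144 and 122 FPKM and was not called (adjusted p = 0.404).

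Complement and stromal secretory genes were called higher in 9 of 20 tested and lower in 1. C3, the central complement protein, rose from 2.097, 1.86 and 2.22 FPKM to 173, 174 and 183 FPKM (log2 fold change 5.86, SE 0.56, adjusted p = 2.64e-07). CFB, which forms its convertase, was called higher (log2 fold change 3.65), as was CFD above. C3, CFB and CFD form the loop of the alternative pathway. PENK, the precursor of enkephalins, rose from 3.14, 3.09 and 3.86 to 66.4, 70.3 and 84.2 FPKM (log2 fold change 4.09, SE 0.30, adjusted p = 3.87e-09). PTX3, a soluble pattern recognition protein, was the gene called lower, from 67.5, 60.9 and 59.3 to 2.61, 4.16 and 4.42 FPKM (log2 fold change -3.77, SE 0.75, adjusted p = 6.88e-04). CLU (1822 ± 85.2 and 1667 ± 204 FPKM, mean ± SD, n = 3) was not called.

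Antioxidant genes had 3 of 26 tested called higher and 0 lower. SOD2, the superoxide dismutase of mitochondria, rose from 179, 169 and 188 FPKM to 1475, 1725 and 949 FPKM (log2 fold change 2.90, SE 0.32, adjusted p = 1.04e-06). SOD3, the secreted form, rose from 61.01, 71.5 and 51.2 to 635, 500.4 and 776 FPKM (log2 fold change 3.35, SE 0.34, adjusted p = 4.57e-07), and PRDX6, a peroxiredoxin, from 55.5, 50.3 and 48.9 to 356, 401 and 392 FPKM (log2 fold change 2.87, SE 0.34, adjusted p = 2.89e-06). CAT, catalase, measured 27.97, 28.1 and 26.9 FPKM on day 4 and 49.2, 57.8 and 55.3 FPKM on day 8 and was not called (adjusted p = 0.07). HMOX1 (127 ± 70.3 and 139 ± 11.5 FPKM, mean ± SD, n = 3) was not called.

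Lysosomal genes had 5 of 37 tested called higher and 1 lower. GLA, the α-galactosidase that clears globotriaosylceramide, rose from 5.59, 5.16 and 5.82 FPKM to 46.5, 49.3 and 52.3 FPKM. CTSL and CTSZ, cathepsins, rose from 37.2, 31.1 and 36.2 to 274, 234 and 237 FPKM (log2 fold change 2.80, SE 0.23, adjusted p = 1.69e-08) and from 24.3, 23.2 and 19.9 to 74.2, 57.9 and 73.1 FPKM (log2 fold change 1.56, SE 0.19, adjusted p = 3.55e-06). CTSB, another cathepsin, was called higher with a log2 fold change of 1.02. NPC1, which moves cholesterol out of the lysosome and answers to sterols, was the gene called lower, from 19.2, 18.5 and 18.8 to 5.23, 5.904 and 5.29 FPKM (log2 fold change -1.62, SE 0.30, adjusted p = 3.22e-04). PSAP (242 ± 16.02 and 295 ± 19.1 FPKM, mean ± SD, n = 3), LAMP1 (137 ± 9.99 and 155 ± 20.1 FPKM) and CTSD (217 ± 12.9 and 222 ± 24.3 FPKM) were not called.

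The amino acid and unfolded protein responses had 3 of 27 tested genes called higher and 6 lower. The number lower was 2 with median ratio scaling and 3 or 4 in the fits without 1 compared library, and the number higher was 1 without IMF-4d replicate 2. ASNS, the asparagine synthetase, fell from 50.3, 49.7 and 52.7 FPKM to 19.4, 21.9 and 20.9 FPKM (log2 fold change -1.26, SE 0.27, adjusted p = 0.00137). PHGDH, the entry enzyme of serine synthesis, fell from 109, 117 and 98.2 to 48.4, 38.8 and 57.6 FPKM (log2 fold change -1.16, SE 0.22, adjusted p = 3.66e-04) and was not called with median ratio scaling. The chaperone HSPA5 (268 ± 12.6 and 397 ± 23.7 FPKM, mean ± SD, n = 3) was not called.

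Genes of the cell cycle and DNA replication had 9 of 40 tested called lower and 0 higher, with a median of -0.62. The number lower was 4 with median ratio scaling and 5 with quantile normalization. CDC20, an activator of the anaphase-promoting complex, fell from 16.4, 18.6 and 16.2 FPKM to 6.98, 4.93 and 6.93 FPKM (log2 fold change -1.32, SE 0.27, adjusted p = 7.33e-04). KIF20A, a kinesin of cell division, fell from 14.8, 13.9 and 15.2 to 4.75, 4.604 and 5.41 FPKM (log2 fold change -1.40, SE 0.25, adjusted p = 2.37e-04), and BUB1B, a checkpoint kinase, from 6.13, 6.93 and 6.47 to 2.07, 2.65 and 2.07 FPKM (log2 fold change -1.21, SE 0.21, adjusted p = 1.83e-04). CDC25B, a phosphatase that opens mitosis, fell from 13.6, 15.6 and 14.2 to 4.51, 3.42 and 4.71 FPKM (log2 fold change -1.58, SE 0.22, adjusted p = 1.91e-05). CCND1 (26.1 ± 2.19 and 23.6 ± 1.898 FPKM, mean ± SD, n = 3), CDK2 (41.7 ± 1.16 and 35.5 ± 4.33 FPKM) and MCM7 (24.1 ± 0.404 and 21.3 ± 2.59 FPKM) were not called. Of 22 tested inhibitors and p53 targets 3 were called higher and 3 lower. PLK2, a polo-like kinase, rose from 30.6, 28.7 and 29.2 to 106, 116 and 98.03 FPKM (log2 fold change 1.82, SE 0.23, adjusted p = 6.50e-06), and GADD45A, a stress sensor of DNA damage, fell from 47.5, 51.3 and 46.7 to 7.21, 6.16 and 8.47 FPKM (log2 fold change -2.59, SE 0.22, adjusted p = 4.10e-08). GADD45G of the same family fell with a log2 fold change of -1.73, and the inhibitor CDKN1B (21.1 ± 0.988 and 19.7 ± 1.72 FPKM, mean ± SD, n = 3) was not called. CDKN1A, the inhibitor p21, measured 161, 157 and 147 and 309, 271 and 303 FPKM and missed the fold threshold (log2 fold change 0.92, adjusted p = 1.61e-04).

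Genes of the stromal progenitor surface and lineage had 2 of 24 tested called higher and 5 lower. The number higher was 0 without IMF-8d replicate 3 and 1 without IMF-4d replicate 1, and the number lower was 3 without IMF-4d replicate 2, IMF-8d replicate 1 or IMF-8d replicate 2. PI16, a marker of the most uncommitted fibroblasts of connective tissue, fell from 19.9, 21.1 and 23.4 FPKM to 1.72, 2.402 and 2.03 FPKM (log2 fold change -2.88, SE 0.27, adjusted p = 1.16e-07). MEOX2, a mesodermal homeobox gene, fell from 16.8, 17.02 and 17.1 to 4.01, 4.16 and 3.23 FPKM (log2 fold change -1.91, SE 0.16, adjusted p = 2.38e-08). PRRX1 (265 ± 7.91 and 175 ± 37.5 FPKM, mean ± SD, n = 3) and NT5E (18.01 ± 1.11 and 27.9 ± 0.119 FPKM) were not called.

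Interferon-stimulated genes depended on which libraries set the spread. In the limma fit over all 24 libraries 0 of 32 tested were called, with a median of -1.02. At an unadjusted p under 0.05 there were 12, against 44.5% of all tested genes. In the limma fit over the 12 IMF libraries alone 17 were called lower and 0 higher, against 3.41% of all tested genes called lower in that fit. The libraries of day 8 all lay under those of day 4 for 24 of the 32 genes and above them for 1, where 52.9% of all tested genes had libraries apart in either direction. MX1, an antiviral GTPase, measured 177, 184 and 225 FPKM on day 4 and 59.4, 48.6 and 47.6 FPKM on day 8 (log2 fold change -1.89, adjusted p = 0.0199 over all libraries). OAS2, which senses double-stranded RNA, measured 133, 131 and 165 and 37.6, 38.99 and 31.9 FPKM (log2 fold change -1.95, adjusted p = 0.0164). In the subcutaneous cells both genes were called higher on day 8, with log2 fold changes of 3.41 for MX1 and 3.53 for OAS2, but the BF libraries differed widely. MX1 measured 26.1 ± 20.8 FPKM in BF-4d and 356 ± 275 in BF-8d, and OAS2 14.3 ± 9.48 and 243 ± 209 FPKM (mean ± SD, n = 3). IFI6 measured 435 ± 9.54 and 436 ± 60.2 FPKM in IMF (mean ± SD, n = 3) and was not called.

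Of the candidate genes that the study itself names, CACNG7, SHC3, ATP1B1 and FGF2 were called higher besides those already described, and FGF2 (log2 fold change 1.04) is given below with the calls close to the threshold. ATP1B1, a subunit of the sodium pump, rose from 6.86, 7.14 and 8.18 FPKM to 78.6, 90.7 and 77.3 FPKM (log2 fold change 3.31, SE 0.40, adjusted p = 3.76e-06). CACNG7, a regulatory subunit of calcium channels and glutamate receptors, rose from 4.03, 4.19 and 3.49 to 11.99, 9.86 and 11.6 FPKM (log2 fold change 1.31, SE 0.14, adjusted p = 6.93e-07). SHC3, a signalling adaptor, rose from 0.308, 0.225 and 0.299 to 1.83, 2.54 and 2.54 FPKM (log2 fold change 1.36, SE 0.09, adjusted p = 1.41e-09). ST3GAL5, which makes the ganglioside GM3, measured 11.6 ± 0.555 and 23.4 ± 1.73 FPKM (mean ± SD, n = 3) and PPP1R3C, a glycogen-targeting subunit, 15.6 ± 0.354 and 29.6 ± 1.501 FPKM, and neither was called. THSD7A and ADORA1 stood under 1 FPKM on both days, at means of 0.0226 and 0.255 FPKM and of 0.0306 and 0.445 FPKM, and missed the fold threshold. The study chose these genes on the same samples, so their direction is not independent evidence.

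Calls close to the threshold are given with the libraries that decided them. Of 151 genes called among those the rule names, 18 lost the call in at least 1 of the 6 fits without 1 compared library. TRIB3 and DDIT3 of the stress response, CENPF of the centromere, RUNX1 and the YAP target FJX1 lost it in all 6, with adjusted p up to 0.0233, 0.0278, 0.0304, 0.0408 and 0.041. COL1A1, the main fibrillar collagen, at 4148, 4429 and 4516 FPKM on day 4 and 1808, 2063 and 2316 on day 8, and INHBA, an activin subunit, kept the call only without IMF-8d replicate 3, with log2 fold changes of -1.18 to -0.996 and 2.25 to 2.47 over the 6 fits. FGF2, at 92.8, 91.99 and 99.7 and 183, 249 and 165 FPKM, lost it without any one of the IMF-4d libraries and without IMF-8d replicate 2 (0.87 to 1.16), and PLPP3 without IMF-4d replicates 1 or 2 or IMF-8d replicates 1 or 3 (-1.07 to -0.97). FASN and CD248 lost it without IMF-4d replicate 2 or IMF-8d replicates 1 or 2 (-1.16 to -0.95 and -1.35 to -1.06). PLIN3 lost it without IMF-4d replicate 3 or IMF-8d replicate 3 (0.94 to 1.17), and CD44 without IMF-4d replicate 1 or IMF-8d replicate 3 (0.94 to 1.26). VLDLR lost it without replicate 2 of either day (0.93 to 1.07), and ACADL without IMF-4d replicate 3 or IMF-8d replicate 1 (-1.14 to -0.90). Single libraries decided ACSS2 (IMF-4d replicate 2, -1.03 to -0.98), ARSB (IMF-8d replicate 2, 0.95 to 1.14) and PSAT1 (IMF-8d replicate 3, -1.56 to -1.36). Among genes named outside the rule, FST and CA12 lost the call in all 6 fits (1.11 to 1.25 and -1.56 to -1.25). PTGIS and CSRP2 kept it only without IMF-8d replicate 2 (-1.25 to -1.04 and 1.70 to 1.82), and FADS1 only without replicate 3 of either day (-1.05 to -0.97). CTSB lost it without IMF-4d replicate 2 or IMF-8d replicate 3 (0.84 to 1.20), and ITGA1 without IMF-8d replicate 2 (0.92 to 1.24). All ranges are log2 fold changes over the 6 fits, and each kept its direction.

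The change of the intramuscular cells was last set against that of the subcutaneous cells over the same days. In BF 472 genes were called (2.93%), and the difference between the depots, IMF change minus BF change, was called for 1031 genes (6.39%). Of the 1169 genes called in IMF, 626 had a called difference and 543 did not. Some genes that rose in IMF already stood at a high level in BF on day 4. IL11 measured 812, 1422 and 3749 FPKM in BF-4d and 1367, 1235 and 1340.3 in BF-8d, against 842, 735 and 906 in IMF-8d, so that the lowest BF-4d library lay within the range of IMF-8d. PTGS2 measured 753, 1146 and 4825 FPKM in BF-4d and 1003, 2880.3 and 2932 in BF-8d, all above the 412, 503 and 343 of IMF-8d. For both genes replicate 3 stood far above the other BF-4d libraries. AREG measured 397 ± 88.99 and 240.1 ± 43.3 FPKM in BF and 83.03 ± 13.5 in IMF-8d, and LDHA 959.8 ± 72.9 and 1226 ± 117 FPKM in BF and 1127 ± 37.6 in IMF-8d (mean ± SD, n = 3). PCK1 averaged 172 FPKM in BF-4d and 45.2 in BF-8d, which did not pass the test in BF (log2 fold change -1.76, adjusted p = 0.122), with a difference between depots of 7.85 (adjusted p = 7.19e-05). IGFBP2 measured 2556 ± 1299 FPKM in BF-4d and 909.6 ± 93.7 in BF-8d (mean ± SD, n = 3) and was not called there either (log2 fold change -1.38, adjusted p = 0.0286), with a difference between depots of 4.69 (adjusted p = 2.39e-05).

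For other genes the difference between depots was not called. CFD rose in both depots, with log2 fold changes of 3.66 in IMF and 3.33 in BF and a difference of 0.33 (adjusted p = 0.709). STEAP4 rose by 5.31 and 3.77 with a difference of 1.54 (adjusted p = 0.0797). The cholesterol gene SQLE fell in both, with log2 fold changes of -2.59 and -1.68 (adjusted p = 0.0315 for the difference), and so did IDI1, with -2.35 and -1.63 (adjusted p = 0.0334). A missed threshold does not show that the depots changed by the same amount. For ACTA2 the difference was not called either (adjusted p = 0.239), with means of 15.2 and 6.49 FPKM in BF against 191 FPKM in IMF-8d. MYLK, unlike these genes, had a called difference of -4.61 (adjusted p = 1.15e-05). It averaged 0.769 FPKM in BF-4d and 0.349 FPKM in BF-8d, under the IMF-8d mean of 2.05 FPKM.

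**Figure D5:**
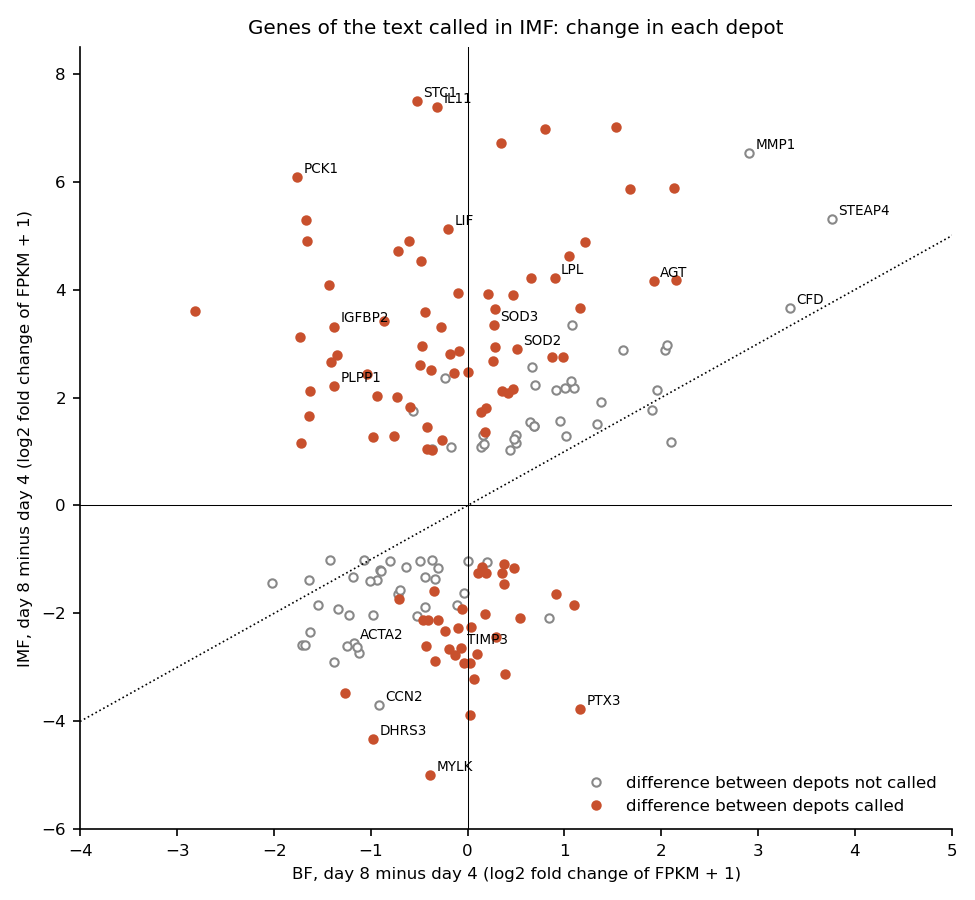
Change from day 4 to day 8 in BF (horizontal) against that in IMF (vertical), as log2 fold change of FPKM + 1, for the genes of the text that were called in IMF. Filled points had a called difference between depots, and the dotted line marks equal change; CFD lies near it, and PCK1 and IGFBP2, not called in BF, rise in IMF while they lie left of 0 in BF.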

How the data were processed

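Polyadenylated RNA of pig preadipocytes was sequenced as paired reads on an Illumina NovaSeq. The authors aligned reads with HISAT2 to Sscrofa11.1 and quantified genes with StringTie (version 1.3.4d in the submitters' processing notes) against the Ensembl annotation, and the deposited values are FPKM, scaled by length and mapped fragments, 1 per gene and library. Depth is unknown, and an exact 0 can be a failed estimate. Per the methods the authors made their own calls with DESeq2; it takes counts, so it was left out.

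Genes whose FPKM summed to more than 1 over the 24 libraries were tested as log2(FPKM + 1), which understates the change of low genes, with limma 3.58.1 in R 4.3.3 (1 mean per group, 8 groups, eBayes with trend and robust), after a test on simulated data. P-values were adjusted by Benjamini-Hochberg over all 16135 genes. The labels give no batch. Symbols were matched for 14815 of 21271 Ensembl genes. Genes sharing reads with close copies or overlapping neighbours are uncertain.

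Genes were named by a rule: the 12 largest rises and the 12 largest falls among called genes with a symbol, a higher group mean of at least 5 FPKM and libraries apart; per list, up to 5 called genes with the largest change and up to 5 not called with the highest level; adipocyte genes; and candidates of the study. Where a list held 5 or fewer called genes, or a sequence or a pathway called for it, further genes were named after their values had been seen. Some genes and sequences that the rule names are not reported here. The lists and named genes were chosen with earlier results of these data known. Promoters are the 250 bases before the start of 19527 RefSeq protein-coding genes. Alternatives were other pseudocounts, filters, scalings, sets of libraries, the replicate block and leaving out each library.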

Additional observations from a re-analysis of the deposited data

Results flagged for a closer look

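The results given here were picked out because the change from day 4 to day 8 differed between the depots by the test of the difference itself, IMF change minus BF change, at the same thresholds as a call. All values are log2 differences from the limma fit over all 24 libraries, and a positive value means that IMF changed upward relative to BF. Some genes stood near 0 in BF on day 4 and could hardly fall there. CNN1, COL8A2 and CMKLR1 averaged 0.332, 0.091 and 0.0122 FPKM in BF-4d. For such genes the fall in IMF alone set a negative difference. The call was made for 6.39% of all tested genes, so that such differences were common. Of the 1031 called differences 614 were upward and 417 downward, which is the scale for the upward counts. Beside each list stands how many of its tested genes had a called difference and how many of those were upward, and the values are of the genes named in the report, with a gene of several lists given once. Among adipogenic transcription factors (4 called, 1 upward) the difference was 3.29 for GATA2, -1.82 for EBF1 and -2.93 for DDIT3. For fatty acid uptake and activation (4 called, 3 upward) it was 3.31 for LPL, 1.87 for ACSL1, 1.77 for ACSL4 and -1.14 for ACSL5. Fatty acid synthesis and desaturation (3 called, 1 upward) had 2.26 for ELOVL3 and -1.65 for ELOVL4. Among glycerol phosphate supply and triglyceride assembly (3 called, 3 upward) the difference was 7.85 for PCK1, 3.60 for PLPP1 and 1.63 for GPD2. For adipokines and secreted adipocyte factors (6 called, 4 upward) it was 2.89 for FST, 2.24 for AGT, 1.66 for APLN and -1.28 for FSTL1. Cholesterol synthesis and uptake (2 called, 1 upward) had 2.40 for HSD17B7. Among glycolysis (10 called, 10 upward) the difference was 3.43 for SLC16A3, 1.76 for LDHA, 1.69 for ALDOA and 1.59 for PGK1. For hypoxia-inducible genes (4 called, 4 upward) it was 3.58 for NDUFA4L2 and 2.59 for MXI1. Amino acid response and unfolded protein response (5 called, 1 upward) had -1.61 for ASNS and -1.83 for PSAT1. Among lysosome (5 called, 5 upward) the difference was 3.42 for GLA, 2.98 for CTSL, 1.46 for ARSB and 1.39 for CTSB. For cell cycle and DNA replication (2 called, 0 upward) it was -1.23 for CDC25B.

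Cell cycle inhibitors and p53 targets (4 called, 3 upward) had 2.41 for PLK2, 1.15 for CDKN1B and -1.02 for GADD45G. Among contractile and myofibroblast genes (11 called, 0 upward) the difference was -1.43 for VCL, -2.20 for MYL9, -2.28 for DES, -2.48 for CNN1, -2.64 for SYNPO2 and -4.61 for MYLK. For serum response factor, YAP and CCN genes (2 called, 1 upward) it was 1.20 for NT5E and -1.73 for AXL. Fibrillar and network collagens (8 called, 3 upward) had 2.05 for COL4A1, 1.47 for COL15A1, -1.15 for COL3A1, -1.47 for COL1A1, -2.72 for COL11A1 and -2.85 for COL8A2. Among matricellular, elastic fibre and proteoglycan genes (13 called, 5 upward) the difference was 3.10 for PRELP, -2.63 for THBS1 and -3.52 for OMD. For matrix crosslinking and proteolysis (8 called, 4 upward) it was 4.03 for ADAMTS4, 2.66 for PLAUR and -2.57 for TIMP3. TGF-beta, activin and BMP pathway (11 called, 10 upward) had 2.96 for BMP2, 2.20 for ID3, 2.02 for GREM1, 1.79 for ID1 and -1.71 for ID4. Among WNT ligands, receptors and inhibitors (7 called, 5 upward) the difference was 4.14 for SFRP1, 4.07 for WNT11, -2.10 for SFRP5 and -2.17 for FZD8. For cytokines and chemokines (12 called, 8 upward) it was 7.70 for IL11, 6.57 for CXCL14, 5.47 for CXCL8, 5.33 for LIF, 3.76 for IL1A, 3.68 for IL6 and -2.01 for CSF1. Growth factors of the EGF, FGF, PDGF and VEGF families (5 called, 4 upward) had 5.44 for AREG, 3.57 for EREG, 3.35 for FGF10 and 2.74 for ANGPT1. Among insulin and IGF signalling (8 called, 6 upward) the difference was 4.69 for IGFBP2, 4.03 for IGFBP5, 3.75 for IGFBP4, 1.86 for PPP1R3B, 1.75 for IGFBP7, -1.37 for IRS1 and -2.57 for IGFBP6.

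For glucocorticoid and cAMP response genes (9 called, 9 upward) it was 5.52 for SIK1, 5.02 for NR4A2, 4.86 for NR4A1, 4.28 for NR4A3, 3.48 for PDE4D and 2.89 for HSD11B1. Retinoid metabolism and binding (4 called, 1 upward) had -2.17 for CRABP1 and -3.36 for DHRS3. Among prostaglandin synthesis, breakdown and receptors (6 called, 6 upward) the difference was 6.39 for PTGS2, 3.72 for PLA2G4A, 2.47 for PTGES and 2.41 for AKR1B1. For antioxidant and metallothionein genes (5 called, 5 upward) it was 3.08 for SOD3, 2.96 for PRDX6, 2.40 for SOD2 and 2.17 for CAT. Interferon-stimulated genes (25 called, 0 upward) had -5.30 for MX1 and -5.48 for OAS2. Among stromal progenitor surface and lineage genes (5 called, 1 upward) the difference was -1.65 for CD248, -1.85 for MEOX2 and -2.54 for PI16. For complement and stromal secretory genes (7 called, 6 upward) it was 8.02 for STC1, 5.53 for PENK, 4.18 for C3, 2.49 for CFB and -4.93 for PTX3. Genes of no list had 6.97 for RGS2, 6.42 for RGS5, 6.18 for CHI3L1, 3.58 for ATP1B1, 1.18 for SHC3, -2.21 for COLEC12, -2.89 for GATM, -2.93 for CMKLR1, -3.28 for RASSF4 and -3.91 for OLFML2B. What sets the depots apart was not tested.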

How the results depend on the processing

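The 1169 genes called between IMF-4d and IMF-8d became 2055 with a pseudocount of 0.01 and 2103 with a pseudocount of 0.1, which give low genes more weight. Under the other alternatives the count lay between 1128 (no filter) and 1268 (only the compared libraries), and without 1 of the 6 compared libraries between 1079 and 1183. The median ratio scaling moved the median of all genes from -0.07 to 0.00342 and the calls to 818 higher and 354 lower. Quantile normalization gave 727 higher and 428 lower. The 1031 genes with a called difference between depots ranged from 883 to 1243 under the other alternatives and from 808 to 1207 without 1 library. In the fit of the 12 IMF libraries alone 10 further named genes were called and 1 lost its call. BF-2d replicate 3 stands apart from its group, and without it, an alternative chosen after seeing the data, the counts were 1200 and 1189. No called gene among the named ones changed sign under any of these alternatives. Of the 319 named genes tested, 36 that were not called changed sign under at least 1 of them, 18 with median ratio scaling and 13 with quantile normalization, all with log2 fold changes of at most 0.335 in size. The medians of 5 lists, at most 0.083 in size, changed sign as well (adipogenic factors, fatty acid oxidation, cell cycle inhibitors, WNT genes and ribosomal proteins).

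With the replicate block 1167 genes were called between the days and 963 had a called difference. Deviations from the group means of IMF-4d and IMF-8d samples of the same number correlated at -0.0217, -0.231 and -0.247, so the numbers were not taken as pairs.

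Among lists, median ratio scaling left 2 genes of fatty acid synthesis, 4 of the cell cycle, 2 of the amino acid response, 2 of the progenitor list and 0 of fatty acid oxidation called lower. It also left 1 gene called lower among cytokines, growth factors and the TGF-beta pathway each. With quantile normalization 0 genes of the amino acid response and 0 progenitor genes were called higher, and 3 of fatty acid synthesis and 5 of the cell cycle lower. WNT genes called higher were 10 with a pseudocount of 0.1. Lipid droplet genes called higher were 1 without IMF-4d replicate 3 and 1 without IMF-8d replicate 3. The named calls that median ratio scaling ended were ACAA2, ACADL, ACSS2, CA12, CD248, CENPF, COL1A1, DDIT3, FADS1, FASN, FSTL1, PHGDH, PLPP3, PTGIS, RUNX1 and TRIB3. The cause of these shifts was not tested.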
